A study of Mus musculus with 2 samples.

Results

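The genes described here are 9 mouse genes of the Nrf2 antioxidant program, Slc7a11, Srxn1, Txnrd1, Gclm, Gclc, Nqo1, Prdx1, Sqstm1 and Gsr, out of 25909 genes in the scRNA-seq count matrix. They were chosen by the levels of Slc7a11 and Srxn1, leading genes of a CDA-HFD macrophage cluster in an earlier clustering of the same cells, and filled up with genes of the same program. Their levels across cell types and diets are therefore given as descriptions and support nothing by themselves. All 9 had counts, from 590 counts in 229 cells for Nqo1 to 350220 counts in 13152 cells for Prdx1.

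The cells were CD45.2+ CD11b+ liver leukocytes sorted without cells positive for CD90.2, B220, NK1.1 or SiglecF. They came from 4 mice, 1 per group. An Egr2fl/fl mouse and a Lyz2Cre/+.Egr2fl/fl mouse were fed ND, and 1 mouse of each genotype was fed CDA-HFD, a choline-deficient high-fat diet used as a model of MASH, for 7 weeks. All 4 mice carried floxed Egr2 alleles. In the Lyz2Cre/+ mice Cre is made from the Lyz2 locus, so Egr2 is deleted in the cells that use this locus, and cells that do not use it can keep the gene. The livers were digested with collagenase, the cells of each mouse were marked with a hashtag, and the 4 mice were captured and sequenced together as 1 library. The 15394 cells given to a mouse numbered 1724 and 1592 on ND and 5889 and 6189 on CDA-HFD, with Egr2fl/fl first, and their median total was 13166 to 16447 counts. A single mouse stood for each group, so the spread between mice is not known and groups were not compared by a test. All intervals are 95% intervals that cover counting error only. Those of levels and ratios treat counts as independent, and can be too narrow where counts gather in few cells or are reads and not molecules.

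Nrf2 (gene Nfe2l2) is a transcription factor that is held at a low level by Keap1, an adaptor that delivers it to a Cul3 ubiquitin ligase. Oxidants and electrophiles modify Keap1, and Nrf2 then enters the nucleus, pairs with a small Maf protein and binds the antioxidant response element. Bach1 competes for the same element. In macrophages the program is known for glutathione and thioredoxin metabolism, iron storage, heme breakdown and the pentose phosphate pathway. Several of its genes also answer to other factors, among them Slc7a11, which is a target of Atf4 as well.

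The 9 genes cover several steps. Slc7a11 (chromosome 3, 49892526 to 50443614, minus strand, GRCm38) encodes xCT, the subunit that lets cells import cystine in exchange for glutamate. Gclc (chromosome 9, 77754535 to 77794485) and Gclm (chromosome 3, 122245557 to 122270732) encode the catalytic and the modifier subunit of glutamate-cysteine ligase, the rate-limiting enzyme of glutathione synthesis. Gsr (chromosome 8, 33652523 to 33698163) encodes glutathione reductase. Txnrd1 (chromosome 10, 82833951 to 82897712), Srxn1 (chromosome 2, 152105516 to 152111376) and Prdx1 (chromosome 4, 116685544 to 116700822) encode cytosolic thioredoxin reductase, sulfiredoxin and peroxiredoxin 1. Sulfiredoxin repairs peroxiredoxins that have been over-oxidized. Nqo1 (chromosome 8, 107388225 to 107403206, minus strand) encodes a quinone reductase. Sqstm1 (chromosome 11, 50199366 to 50210827, minus strand) encodes p62, an autophagy adaptor that binds Keap1.

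The promoters were searched because the program acts through 1 sequence element. RefSeq promoter sequences on GRCm38.p6 were at hand for 7 of the 9 genes, with 3 start sites for Txnrd1. The 250 bases before each start were searched on both strands for TGACNNNGC and TGAGNNNGC, the core letters of the element. The letters overlap those of AP-1 sites, TGACTCA and TGAGTCA. Of the 9 promoters searched, matches lay in those of 5 genes, in 1 promoter each. Of all 32851 promoters, 23% hold either motif, so a match alone is common. Srxn1 had matches at 2 places, which 3.18% of all promoters have. Nqo1 and Sqstm1 had none in this window. The matching stretches are printed 5′ to 3′ on the strand of the gene, with the 9 motif letters in capitals, also where the motif lies on the other strand.

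Srxn1, chr2:152105326-152105523, plus strand, 198 to 1 bases before the start: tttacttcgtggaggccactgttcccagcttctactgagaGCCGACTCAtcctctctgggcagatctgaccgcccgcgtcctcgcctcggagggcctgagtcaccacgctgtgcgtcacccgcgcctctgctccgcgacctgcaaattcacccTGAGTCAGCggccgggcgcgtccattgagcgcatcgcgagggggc
Slc7a11, chr3:50443662-50443750, minus strand, 137 to 49 bases before the start: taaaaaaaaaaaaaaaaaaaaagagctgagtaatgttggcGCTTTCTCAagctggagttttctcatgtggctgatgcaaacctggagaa
Gclm, chr3:122245383-122245471, plus strand, 174 to 86 bases before the start: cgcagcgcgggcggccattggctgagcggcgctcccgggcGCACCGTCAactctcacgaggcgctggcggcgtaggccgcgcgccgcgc
Prdx1, chr4:116685426-116685514, plus strand, 173 to 85 bases before the start: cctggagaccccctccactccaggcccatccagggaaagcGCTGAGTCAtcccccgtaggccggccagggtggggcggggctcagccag
Txnrd1, chr10:82859074-82859162, plus strand, 132 to 44 bases before 1 of its 3 starts: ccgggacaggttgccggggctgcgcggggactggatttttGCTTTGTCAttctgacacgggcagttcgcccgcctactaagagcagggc

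Cells were placed in gates by marker genes, none of which is among the 9. Kupffer cells (KC) had a Timd4 count and at least 4 of 8 KC markers, and monocyte-derived Kupffer cells (moKC) had C1q and moKC markers without that. Hepatic lipid-associated macrophages (hLAM) had at least 3000 CPM (counts scaled to a total of 1000000) of the hLAM markers Spp1, Cd9, Fabp5, F10, F7, Mmp12, Itgax, Gpnmb and Trem2. Remaining cells with C1q genes formed a C1q gate and those with Spp1 a Spp1 gate. Monocytes were split into Ly6Chi, Ly6Clo and a Ccr2 gate with little Ly6c2. The Spp1 gate, set by Spp1 alone, had C1qa at 21.4 and 15.1 CPM on CDA-HFD, with Egr2fl/fl first, against 2639 and 2547 CPM in the C1q gate. Its Ccr2 was at 702 and 736 CPM and its Ly6c2 at 502 and 787 CPM, so its cells carried monocyte markers as well. The gates held 1182, 1057, 3459 and 3895 cells in the order ND Egr2fl/fl, ND Lyz2Cre/+.Egr2fl/fl, CDA-HFD Egr2fl/fl, CDA-HFD Lyz2Cre/+.Egr2fl/fl. The KC and moKC markers differed between gates, the hLAM markers less so. Timd4 was at 655 to 687 CPM in the KC gate on ND and at 0.715 to 6.51 CPM in the moKC gate, and Clec4f was at 0.815 to 1.40 CPM in the hLAM gate against at least 289 CPM in the moKC gate. The KC gate asked for a Timd4 count, and Clec4f is a marker of the moKC gate, which came before hLAM. These differences therefore follow from the gates and are no check of them. On CDA-HFD, Gpnmb was at 1023 and 836 CPM in hLAM and still at 800 and 625 CPM in moKC, and Trem2 at 1042 and 1038 CPM against 972 and 931 CPM, so moKC there carried these hLAM markers as well. KC numbered 722 and 770 on ND and 8 and 9 on CDA-HFD, whereas hLAM numbered 8 and 10 on ND and 666 and 547 on CDA-HFD. A gate with under 50 cells in a mouse was not compared, so for KC, hLAM and Spp1 no diet comparison within the gate could be made. Neutrophils, which the gene list was also read in, had at least 3000 CPM of S100a8 and S100a9. S100a8 was at 103 to 165 CPM in the macrophage and monocyte gates, and S100a9, for which values from 1 to 4 do not occur in the matrix, was at 0 there. No value of the 9 genes was affected in this way, as each had a lowest nonzero count of 1.

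Egr2, the targeted gene, was lower in the Lyz2Cre/+.Egr2fl/fl mouse in every gate compared on CDA-HFD. It was at 61.8 CPM against 26.0 CPM in hLAM, 51.3 against 4.52 CPM in moKC, 54.7 against 14.3 CPM in the C1q gate and 32.7 against 8.37 CPM in Ly6Chi monocytes, with Egr2fl/fl first. In KC on ND, where Egr2 was low, it was at 4.85 and 1.06 CPM.

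On CDA-HFD, 8 of the 9 genes had their highest level among the macrophage and monocyte gates in hLAM in the Egr2fl/fl mouse, and 7 of 9 in the Lyz2Cre/+.Egr2fl/fl mouse. Of all genes with at least 100 counts over these gates, 12.3% and 14.1% were highest in hLAM, against 7 of 8 and 7 of 9 members with that many counts. The intervals of hLAM and the next gate overlapped for Slc7a11 in both mice, for Gclc and Nqo1 in the Egr2fl/fl mouse and for Srxn1 in the Lyz2Cre/+.Egr2fl/fl mouse. Gsr was the exception in both mice and was highest in Ly6Clo monocytes. Nqo1 was at 8.05 CPM in the Spp1 gate and 7.97 CPM in hLAM of the Lyz2Cre/+.Egr2fl/fl mouse, values whose intervals overlapped. On ND, with no hLAM to compare, 7 and 6 of the 9 genes were highest in KC. With at least 100 counts these were 6 and 5 of 7, against 20.4% and 34.6% of all genes over the 6 and 3 gates compared. The counts over 9 genes include Nqo1 on 1 count per mouse, and the intervals of KC and the next gate overlapped for Srxn1 and Sqstm1 in both mice, Gclc in the Egr2fl/fl mouse and Gclm in the Lyz2Cre/+.Egr2fl/fl mouse. A level summed over a gate does not tell whether fewer cells held the transcript or each cell held less of it, so the share of cells with a count is given where it is informative.

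**Figure D1:**
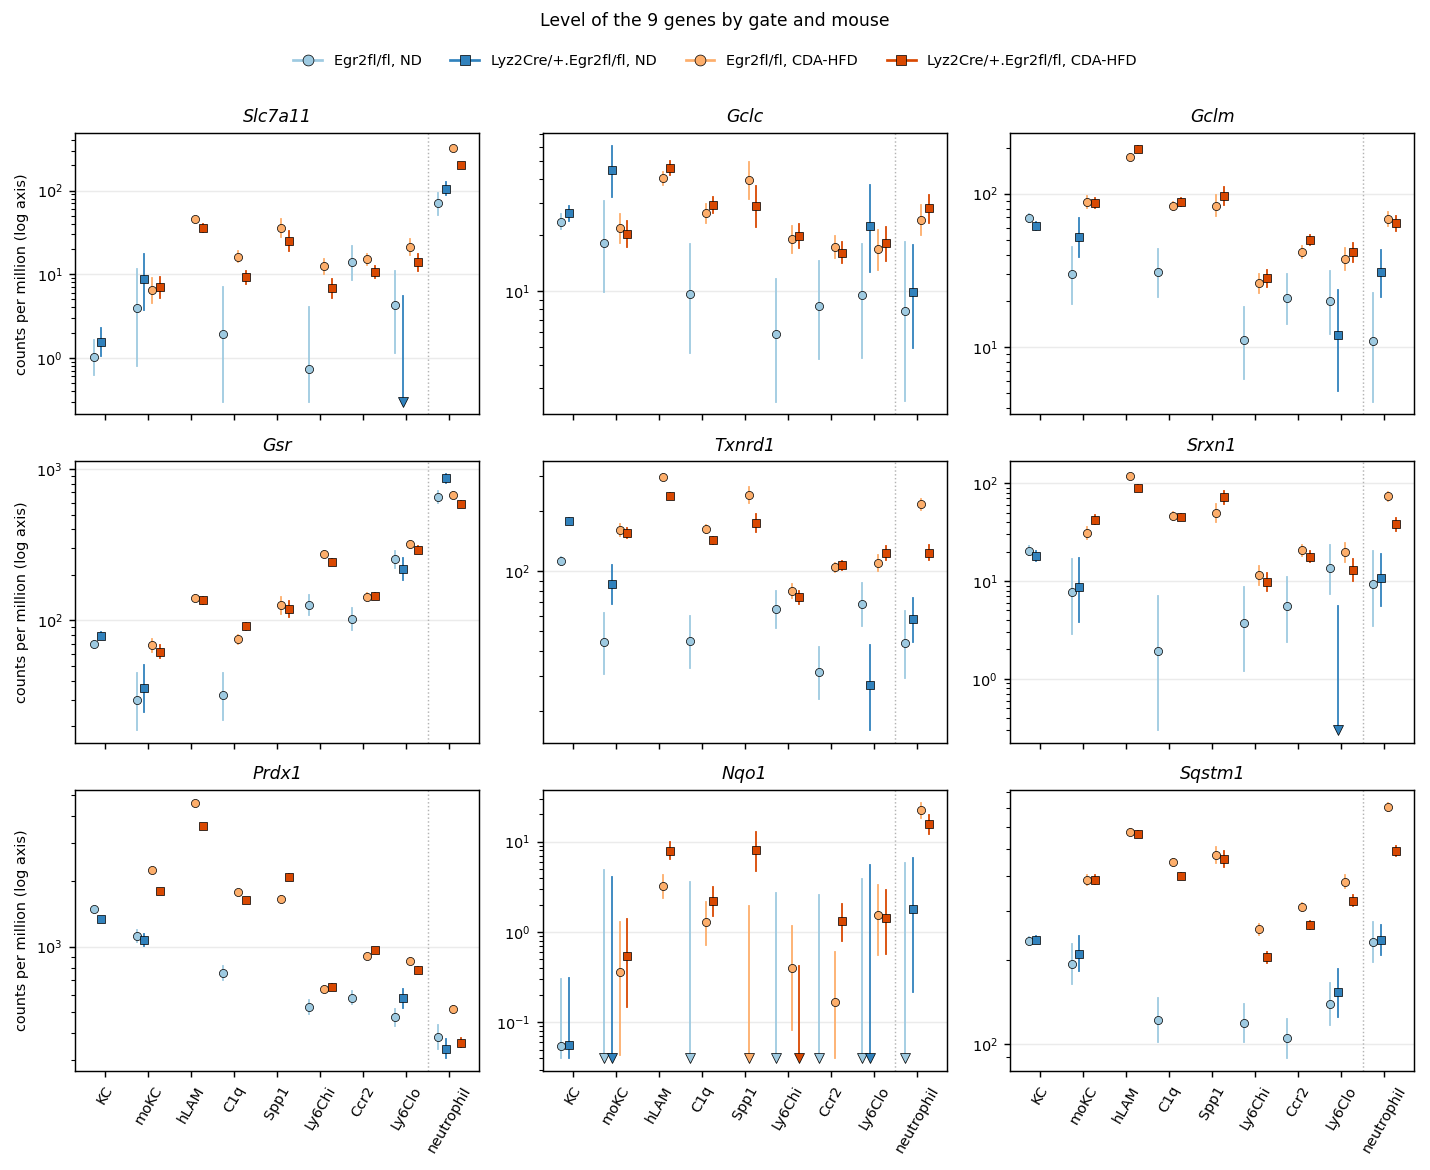
Level of each of the 9 genes in each gate and mouse, in CPM on a log axis; points are summed counts, lines are 95% Poisson intervals cut at the lower edge, and triangles mark 0 counts. Gates with at least 50 cells are drawn, and neutrophils stand to the right of the dotted line. Apart from Gsr and Nqo1, the genes have their highest macrophage or monocyte level in hLAM on CDA-HFD.

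Slc7a11, the cystine importer, was nearly absent from KC on ND and, among the macrophage and monocyte gates, highest in hLAM. Neutrophils on CDA-HFD were higher still, at 326 and 203 CPM, and cells on CDA-HFD that met no gate had 45.4 and 42.6 CPM. In hLAM it was at 45.0 CPM (41.7 to 48.6, 678 counts) in the Egr2fl/fl mouse and 35.8 CPM (32.3 to 39.5, 395 counts) in the Lyz2Cre/+.Egr2fl/fl mouse. The Spp1 gate followed at 35.5 and 25.1 CPM, and in both mice its interval overlapped that of hLAM. Ly6Clo monocytes had 21.1 and 13.9 CPM, the C1q gate 16.2 and 9.18 CPM, the Ccr2 gate 15.0 and 10.7 CPM, Ly6Chi monocytes 12.4 and 6.88 CPM, and moKC 6.43 and 6.98 CPM. In KC on ND it was at 1.04 and 1.56 CPM, from 19 and 28 counts in all. A count of Slc7a11 was found in 26.4% of hLAM in the Egr2fl/fl mouse and 18.1% in the Lyz2Cre/+.Egr2fl/fl mouse, in 2.63% and 2.34% of KC on ND, and in 0 to 3.64% of lymphoid cells, which have a lower median total of 7234 to 8678 counts. The shares in KC were no higher than in lymphoid cells and are read as background, so no fold over KC is given.

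Gclm, the modifier subunit of glutathione synthesis, was at 174 and 197 CPM in hLAM, with moKC, C1q and Spp1 gates at 83.1 to 97.0 CPM and Ly6Chi monocytes at 26.0 and 28.1 CPM. The moKC, C1q and Spp1 gates lay close together, while hLAM stood clear of them in both mice. KC on ND had 69.6 and 61.7 CPM. Gclc, the catalytic subunit, was spread more evenly, at 40.5 and 46.2 CPM in hLAM and 16.2 to 39.7 CPM in the other gates on CDA-HFD. In the Egr2fl/fl mouse its level in the Spp1 gate, 39.7 CPM (31.3 to 49.7), overlapped that in hLAM.

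Gsr, which returns oxidized glutathione to its reduced form, had another order from the rest. Ly6Clo monocytes were highest in all 4 mice, at 254, 218, 319 and 293 CPM in the order ND Egr2fl/fl, ND Lyz2Cre/+.Egr2fl/fl, CDA-HFD Egr2fl/fl and CDA-HFD Lyz2Cre/+.Egr2fl/fl. Ly6Chi monocytes followed on CDA-HFD at 276 and 244 CPM, hLAM had 141 and 136 CPM, and moKC were lowest at 68.6 and 62.4 CPM. Neutrophils exceeded every macrophage and monocyte gate, with 653, 866, 677 and 588 CPM in the same order of mice, and 78.0% to 87.6% of them had a count.

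Of the thioredoxin group, Srxn1 was at 118 CPM (113 to 124) in hLAM of the Egr2fl/fl mouse and 89.3 CPM (83.8 to 95.1) in the Lyz2Cre/+.Egr2fl/fl mouse. The Spp1 gate had 50.2 and 71.9 CPM, the C1q gate 46.3 and 45.3 CPM, moKC 31.1 and 42.6 CPM and the monocyte gates 9.86 to 20.6 CPM. A count was found in 47.1% and 39.5% of hLAM, 20.8% and 17.4% of KC on ND and 4.75% and 6.36% of Ly6Chi monocytes, against 1.25% to 4.0% of lymphoid cells. KC were deeper than C1q-gate cells, and after thinning of each cell to 7000 counts Srxn1 was found in 10.6% and 9.07% of KC and 14.6% and 13.8% of the C1q gate on CDA-HFD.

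Txnrd1 was at 299 and 239 CPM in hLAM, 241 and 176 CPM in the Spp1 gate and 74.1 to 164 CPM elsewhere on CDA-HFD, with 113 and 179 CPM in KC on ND. Prdx1 was at 4590 and 3602 CPM in hLAM and 1643 to 2264 CPM in the moKC, C1q and Spp1 gates on CDA-HFD. It was at 638 to 965 CPM in the monocyte gates there and 1499 and 1339 CPM in KC on ND. Its order therefore ran from hLAM through the moKC, C1q and Spp1 gates to the monocyte gates in both mice. In neutrophils Prdx1 was at 339 to 514 CPM.

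Nqo1, the quinone reductase, was scarce. It had 48 counts in hLAM of the Egr2fl/fl mouse (3.19 CPM, 2.35 to 4.23) and 88 counts in hLAM of the Lyz2Cre/+.Egr2fl/fl mouse (7.97 CPM, 6.39 to 9.82). KC on ND had 1 count in each mouse, and the moKC, C1q and Spp1 gates had at most 30 counts. Neutrophils on CDA-HFD had 110 and 73 counts, 22.5 and 15.6 CPM. Sqstm1, the autophagy adaptor, was at 574 and 563 CPM in hLAM, 474 and 460 CPM in the Spp1 gate and 204 to 447 CPM in the other gates on CDA-HFD. In neutrophils on CDA-HFD it reached 708 and 493 CPM.

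A gene was counted as higher or lower in a comparison when its CPM differed by more than 1.5-fold and it had at least 100 counts over both groups, and the share of all such genes past the same fold is given beside each count. A gene that reaches 100 counts only through the group where it is high had to differ, so counts of members are read as descriptions. Between hLAM and Ly6Chi monocytes on CDA-HFD, 8 members had enough counts, all but Nqo1. In the Egr2fl/fl mouse 7 were higher in hLAM (18.0% of all genes compared) and Gsr was lower (16.5% of all genes). In the Lyz2Cre/+.Egr2fl/fl mouse the same counts were found, 7 higher (16.5% of all genes) and Gsr lower (14.4%). Srxn1 was 10.4-fold (8.34 to 13) and 9.06-fold (7.26 to 11.4) higher, Prdx1 7.19-fold and 5.52-fold, Gclm 6.70-fold and 7.0-fold, Slc7a11 3.64-fold and 5.20-fold and Txnrd1 3.75-fold and 3.23-fold. Sqstm1 and Gclc differed by 2.12-fold to 2.76-fold. Gsr in hLAM was at 0.513 and 0.558 times its level in Ly6Chi monocytes. The median log2 ratio was 1.88 and 2.03 over the members and -0.01 and 0.01 over all genes compared.

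Against moKC, 7 of 8 members were higher in hLAM in each mouse (7.12% and 7.91% of all genes), and Sqstm1 at 1.49-fold and 1.45-fold stayed under the threshold. Slc7a11 differed most, by 7.0-fold (5.01 to 10.1) and 5.13-fold (3.82 to 7.0). Against the C1q gate the counts were 7 of 8 and 7 of 9 (6.58% and 6.21%), with none lower (6.77% and 5.94%). Against the Spp1 gate only 3 of 8 and 3 of 9 were higher (18.6% and 15.2%). These were Srxn1, Gclm and Prdx1 in the Egr2fl/fl mouse and Gclm, Gclc and Prdx1 in the Lyz2Cre/+.Egr2fl/fl mouse. The Spp1 gate itself exceeded Ly6Chi monocytes in 7 of 8 and 6 of 8 members (9.01% and 9.49%), and 1 member, Gsr, was lower in each mouse (16.3% and 14.3%). Ly6Clo exceeded Ly6Chi monocytes in 2 of 8 members (8.69%), Slc7a11 and Srxn1, in the Egr2fl/fl mouse and in 3 of 8 (8.94%), Slc7a11, Txnrd1 and Sqstm1, in the Lyz2Cre/+.Egr2fl/fl mouse.

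Neutrophils differed from hLAM in both directions. In the Egr2fl/fl mouse on CDA-HFD, 3 members were higher in neutrophils than in hLAM (22.2% of all genes) and 4 lower (45.8%), and in the Lyz2Cre/+.Egr2fl/fl mouse 3 were higher (20.7%) and 5 lower (43.4%). Slc7a11 was higher by 7.23-fold (6.61 to 7.92) and 5.66-fold, at 326 and 203 CPM and in 44.2% and 33.2% of neutrophils, and Gsr was higher by 4.79-fold and 4.33-fold. Nqo1 was higher by 7.05-fold and 1.95-fold. Prdx1 was at 0.112 and 0.0997 times its hLAM level and Gclm at 0.393 and 0.326 times. Neutrophils had few counts per cell, with medians of 3883 to 4189 in the 4 mice.

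Other genes of the pathway were read from lists of regulators, other targets, Atf4 targets and antioxidant enzymes outside the Nrf2 list. Of 20 other Nrf2 targets, 16 had enough counts in hLAM and Ly6Chi monocytes on CDA-HFD, and 12 of the 16 were higher in hLAM in both mice, with none lower (18.0% and 16.5% of all genes higher, and 16.5% and 14.4% lower). Akr1b8, an aldo-keto reductase, was at 60.3 and 59.0 CPM in hLAM against 1.86 and 1.26 CPM in Ly6Chi monocytes. Blvrb, biliverdin reductase B, differed by 8.42-fold and 5.79-fold, the ferritin light chain Ftl1 by 3.37-fold and 3.28-fold, the heavy chain Fth1 by 3.28-fold and 3.13-fold, and heme oxygenase Hmox1 by 1.70-fold and 2.97-fold. The pentose phosphate genes G6pdx, Tkt and Taldo1 differed by less than 1.5-fold, as did Pgd. The transcript of Nrf2 itself, Nfe2l2, was at 0.719 and 0.749 times its Ly6Chi level in hLAM, and Keap1 at 1.34 and 1.15 times. Of the 8 regulators listed, 1 was higher and 2 lower in hLAM of the Egr2fl/fl mouse, and 2 were higher and 1 lower in the Lyz2Cre/+.Egr2fl/fl mouse. Bach1 was lower in both mice, at 0.505 and 0.543 times, and the small Maf gene Maff was higher in both, at 1.54-fold and 1.55-fold. Of the other small Maf genes, Mafk was at 0.565 and 0.864 times and Mafg at 1.06 and 1.66 times. Of 16 antioxidant enzymes outside the list, 2 were higher and 2 lower in the Egr2fl/fl mouse and 2 higher and 1 lower in the other, with catalase (Cat) higher and Prdx5 lower in both. These shares were near or under those of all genes. Of the Atf4 list, 3 of 9 genes were higher and 2 lower in the Egr2fl/fl mouse, and 2 of 8 higher and 2 lower in the Lyz2Cre/+.Egr2fl/fl mouse.

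Diet was compared within the gates that held at least 50 cells on both diets. The members were higher on CDA-HFD in most of these comparisons, in macrophages and monocytes alike. In the Egr2fl/fl mice, 28 of 34 member-by-gate ratios over 5 macrophage and monocyte gates were above 1.5-fold and 0 were below the same fold. In the Lyz2Cre/+.Egr2fl/fl mice, 9 of 13 over 2 gates were above and 1 below. Of all gene-by-gate ratios, 14.1% and 13.9% were above and 15.6% and 16.3% below. With clusters in place of gates, 11 of 17 and 8 of 17 were above and 0 and 1 below, with Egr2fl/fl first. Of all ratios there, 14.1% and 13.9% were above and 16.7% and 15.7% below. Each diet was 1 mouse per genotype, so diet and mouse cannot be told apart.

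**Figure D2:**
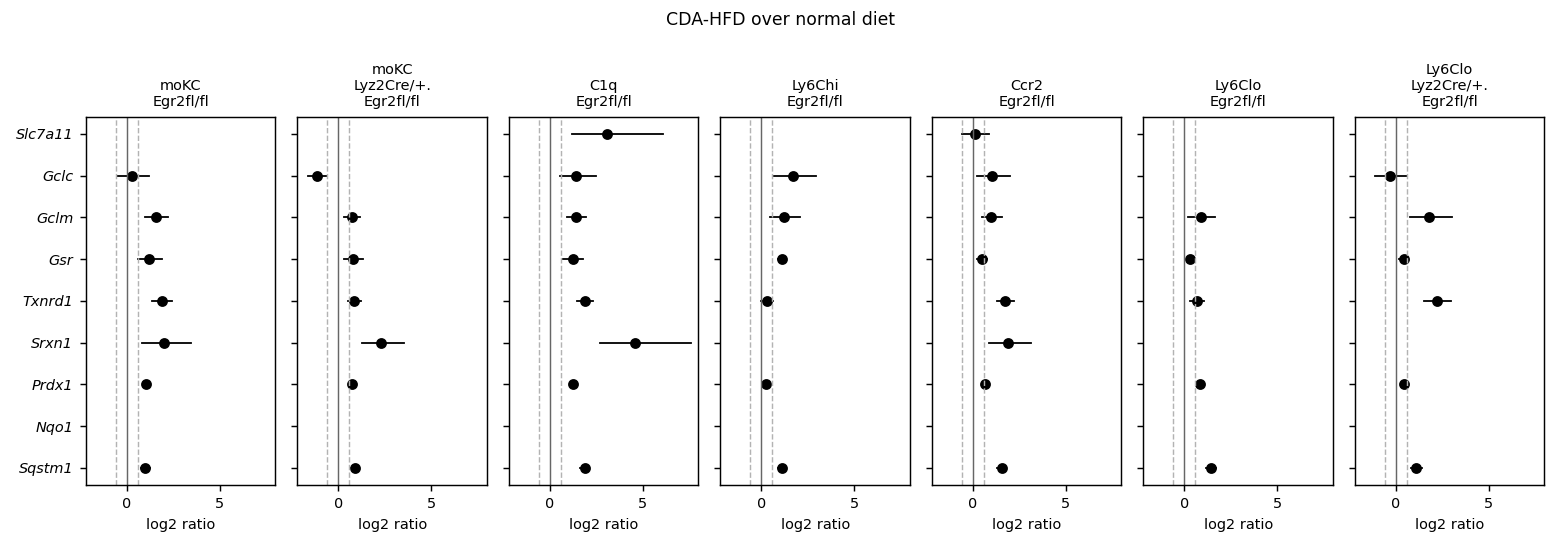
Ratio of CPM on CDA-HFD to CPM on ND for each member with at least 100 counts over both mice, by macrophage or monocyte gate and genotype, as log2 ratios with 95% intervals of the split of the counts. Dashed lines mark 1.5-fold in each direction. Nearly all points lie to the right of the line of no change, and Gclc in moKC of the Lyz2Cre/+.Egr2fl/fl mice lies left of the lower dashed line.

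In moKC, 6 of 7 members were higher on CDA-HFD in the Egr2fl/fl mice (16.9% of all genes) and none lower (16.8%). The gate did not hold the same kind of cell on both diets. From ND to CDA-HFD, Gpnmb went from 58.6 to 800 CPM, Trem2 from 185 to 972 CPM and Spp1 from 2.60 to 487 CPM in the Egr2fl/fl mice, while Clec4f went from 1638 to 289 CPM. In the Lyz2Cre/+.Egr2fl/fl mice Gpnmb went from 13.1 to 625 CPM and Clec4f from 2792 to 493 CPM, and the part of these markers in the member ratios was not tested. Srxn1 was at 7.81 CPM on ND, from 6 counts, and 31.1 CPM on CDA-HFD, 3.98-fold (1.79 to 11), Txnrd1 at 44.3 and 162 CPM, 3.65-fold (2.59 to 5.31), and Gclm at 29.9 and 88.4 CPM, 2.95-fold (1.95 to 4.70). Gsr, Prdx1 and Sqstm1 were 1.99-fold to 2.29-fold higher, and Gclc, at 1.2-fold (0.686 to 2.25), did not differ beyond its counting error. In the Lyz2Cre/+.Egr2fl/fl mice 6 of 7 were also higher (13.8%), with Srxn1 at 4.87-fold (2.44 to 11.4) and the other 5 between 1.66-fold and 1.84-fold. Gclc was lower there, at 44.8 CPM on ND and 20.4 CPM on CDA-HFD, 0.456 times (0.321 to 0.66, 17.8% of all genes lower). Slc7a11 had 3 and 8 counts in moKC on ND and fell short of the count minimum in both genotypes. The moKC of ND had a median of 8909 and 8846 counts per cell, against 27986 and 23323 on CDA-HFD.

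In the C1q gate of the Egr2fl/fl mice all 8 members with enough counts were higher on CDA-HFD (14.4% of all genes higher and 18.4% lower). Txnrd1 went from 44.7 to 164 CPM and Sqstm1 from 122 to 447 CPM, both 3.66-fold. Srxn1 had 2 counts on ND and 537 on CDA-HFD, and Slc7a11 2 and 188 counts. On ND they were found in 3.03% and 1.52% of these cells, shares within the range of lymphoid cells that are read as background, so no fold is given for them. The other 4 genes were 2.35-fold to 2.71-fold higher. Macrophage markers moved in this gate as well. From ND to CDA-HFD in the Egr2fl/fl mice, Trem2 went from 129 to 612 CPM, Gpnmb from 13.6 to 159 CPM and Spp1 from 14.6 to 92.1 CPM, while Ly6c2 went from 332 to 124 CPM, and their part in the member ratios was not tested.

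The monocyte gates had 5 to 8 members with enough counts. In Ly6Chi monocytes of the Egr2fl/fl mice, 4 of 6 members were higher on CDA-HFD (12.9%, with 12.2% lower). Gclc was at 5.89 and 19.1 CPM, 3.25-fold (1.60 to 7.67), and Gclm, Sqstm1 and Gsr were 2.16-fold to 2.36-fold higher, whereas Txnrd1 and Prdx1 were at 1.23-fold and 1.21-fold. In the Ccr2 gate 6 of 8 were higher (14.9%, with 13.6% lower), led by Srxn1 at 3.70-fold (1.85 to 8.66) and Txnrd1 at 3.35-fold (2.49 to 4.61). Slc7a11 was at 13.9 and 15.0 CPM there, 1.08-fold (0.679 to 1.81). Macrophage markers moved with diet in both gates. Trem2 went from 51.6 to 139 CPM in Ly6Chi monocytes and from 61.2 to 231 CPM in the Ccr2 gate, where Gpnmb went from 8.35 to 35.2 CPM, while C1qa went from 42.0 to 3.99 CPM in Ly6Chi monocytes, and their part in the member ratios was not tested. In Ly6Clo monocytes, 4 of 5 were higher in the Egr2fl/fl mice (10.8%, with 17.7% lower) and 3 of 6 in the Lyz2Cre/+.Egr2fl/fl mice (14.1%, with 14.4% lower). Sqstm1, Gclm and Txnrd1 were higher in both, by 2.74-fold and 2.13-fold, 1.87-fold and 3.46-fold, and 1.60-fold and 4.58-fold. Gsr was at 1.26-fold and 1.34-fold. The markers of the Ly6Clo gate moved too. In the Egr2fl/fl mice Ace went from 1355 to 800 CPM and Spn from 496 to 267 CPM, while Ccr2 went from 143 to 414 CPM and Trem2 from 30.7 to 130 CPM, and their part in the member ratios was not tested.

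In neutrophils 7 of 9 members were higher on CDA-HFD in the Egr2fl/fl mice (18.2%, with 18.6% lower) and 6 of 8 in the Lyz2Cre/+.Egr2fl/fl mice (14.7%, with 16.1% lower). Slc7a11 was at 70.6 CPM on ND and 326 CPM on CDA-HFD in the Egr2fl/fl mice, 4.61-fold (3.43 to 6.35), and at 106 and 203 CPM in the Lyz2Cre/+.Egr2fl/fl mice, 1.92-fold (1.58 to 2.34). Srxn1 went from 9.41 to 74.1 CPM and from 10.8 to 38.0 CPM, but it was found in 2.54% and 1.90% of neutrophils on ND, within the range of lymphoid cells, and no fold is given. Nqo1 was at least 4.77-fold higher in the Egr2fl/fl mice, from 0 counts on ND, taken as a floor of 3 counts, to 110 on CDA-HFD. Prdx1 and Gsr were at 1.34-fold and 1.04-fold in the Egr2fl/fl mice and 1.06-fold and 0.679 times in the Lyz2Cre/+.Egr2fl/fl mice. The neutrophil gate on ND also held KC transcripts, with Clec4f at 1261 and 904 CPM against 7.76 and 2.78 CPM on CDA-HFD, and their part in these ratios was not tested.

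Over these 9 comparisons the median log2 ratio of the members was 0.76 to 2.19, and that of all genes compared was -0.11 to -0.01. Immediate early and heat shock genes moved with diet as well. The 12 genes of that list summed to 955 to 2249 CPM in the macrophage and monocyte gates on ND and to 3787 to 8379 CPM on CDA-HFD, and were higher in neutrophils on CDA-HFD too (7591 and 8636 CPM against 4560 and 4884 CPM). In cells at or below the 90th percentile of this sum among the ND cells of the same gate and genotype, 24 of 28 ratios of the members were above 1.5-fold in the Egr2fl/fl mice and 8 of 11 in the Lyz2Cre/+.Egr2fl/fl mice, with 0 lower in both. Of all genes in those cells and gates, 13.6% and 13.4% of the ratios were above and 15.1% and 15.6% below the same fold. That limit was chosen after the values of the list had been seen, and it left a minority of the monocytes on CDA-HFD. In the Egr2fl/fl mouse it kept 98 of 569 Ly6Chi, 209 of 856 Ccr2 and 113 of 393 Ly6Clo cells, against 140 of 206 moKC and 450 of 629 C1q cells. In the Lyz2Cre/+.Egr2fl/fl mouse it kept 172 of 464 Ly6Clo cells and 232 of 298 moKC. The part of these genes in the member ratios was not tested.

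Of the other Nrf2 targets, Hmox1 was higher on CDA-HFD in all 7 macrophage and monocyte comparisons, from 1.59-fold in moKC of the Lyz2Cre/+.Egr2fl/fl mice to 4.43-fold in the C1q gate. In moKC 7 of 15 targets were higher and 2 lower in the Egr2fl/fl mice, and 6 of 14 higher and 1 lower in the other (16.9% and 13.8% of all genes higher, and 16.8% and 17.8% lower). In Ly6Chi monocytes Hmox1 alone, of 12, was higher, a share under the 12.9% of all genes. Nfe2l2 was at 0.985 and 1.07 times its ND level in moKC, was higher by 2.41-fold in Ly6Chi monocytes and 2.02-fold in the Ccr2 gate, and was 1.69-fold and 1.83-fold higher in Ly6Clo monocytes. Txnip, whose product binds and inhibits thioredoxin, was lower by more than 1.5-fold on CDA-HFD in moKC of both genotypes, the C1q gate, Ly6Chi monocytes and Ly6Clo monocytes of the Lyz2Cre/+.Egr2fl/fl mice, at 0.483 to 0.556 times its ND level.

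Between genotypes on CDA-HFD most member ratios lay within 1.5-fold. Over the 7 macrophage and monocyte gates, 1 of 56 member-by-gate ratios of Lyz2Cre/+.Egr2fl/fl to Egr2fl/fl was above 1.5-fold and 4 were below the same fold, and 3 of these 4 were Slc7a11. Of all gene-by-gate ratios, 4.31% were above and 3.0% below. With clusters in place of gates 4 of 28 were above and 0 below (4.04% and 3.27% of all ratios). With a minimum of 500 counts 0 of 37 passed in either direction (1.15% and 1.08%). With at least 90% own hashtag 1 of 54 was above and 7 were below, and the share of all ratios was not computed for that setting.

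**Figure D3:**
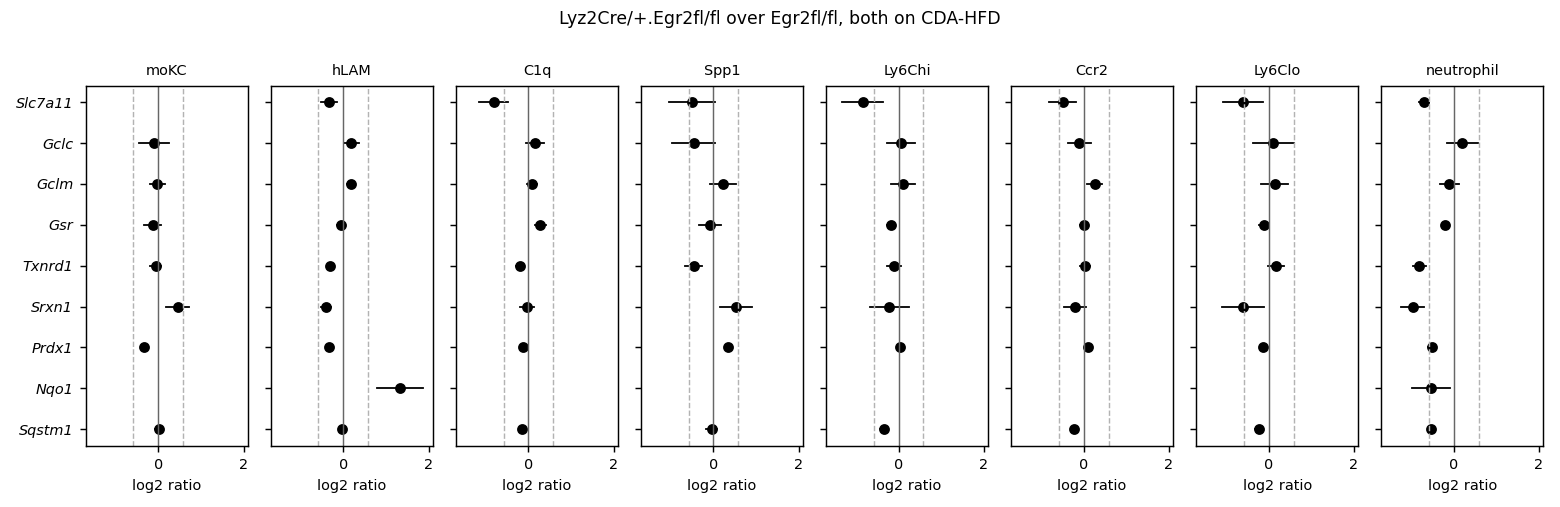
Ratio of CPM in the Lyz2Cre/+.Egr2fl/fl mouse to CPM in the Egr2fl/fl mouse for each member with at least 100 counts over both, both on CDA-HFD, by gate, as log2 ratios with 95% intervals of the split of the counts. Dashed lines mark 1.5-fold in each direction. Most points lie between the dashed lines, Slc7a11 lies left of the line of no change in every gate where it is drawn, and Nqo1 in hLAM lies right of the upper dashed line.

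In hLAM 1 of 9 members was higher in the Lyz2Cre/+.Egr2fl/fl mouse (4.39% of all genes) and 0 were lower (2.83%). The gene was Nqo1, 2.50-fold (1.74 to 3.63), on 88 and 48 counts. The summed hepatocyte genes were at 43.9 CPM there against 20.9 CPM, with Alb at 14.5 against 0 CPM, and their part in the Nqo1 value was not tested. Srxn1 was at 0.755 times (0.697 to 0.816), Prdx1 at 0.785, Slc7a11 at 0.795 (0.70 to 0.901) and Txnrd1 at 0.80, below 1 beyond counting error but within 1.5-fold. The gate's markers also differed between the mice. Ly6c2 was at 66.9 CPM in the Egr2fl/fl mouse and 188 CPM in the Lyz2Cre/+.Egr2fl/fl mouse, Ace at 12.1 and 22.5 CPM, Gpnmb at 1023 and 836 CPM and Spp1 at 1149 and 1835 CPM, and their part in these ratios was not tested. Gclm and Gclc were at 1.13 and 1.14 times. In the C1q gate Slc7a11 was at 9.18 against 16.2 CPM, 0.567 times (0.448 to 0.715), the 1 member of 8 that was lower (2.57%), with none higher (3.69%). In Ly6Chi monocytes it was at 6.88 against 12.4 CPM, 0.557 times (0.395 to 0.778), again 1 of 8 (2.49%), with none higher (4.09%). Markers differed between the mice here too, with Egr2fl/fl first. Ly6c2 was at 124 and 223 CPM in the C1q gate, and in Ly6Chi monocytes Trem2 was at 139 and 225 CPM and C1qa at 3.99 and 12.7 CPM, and their part in the Slc7a11 ratios was not tested. When clusters of cells took the place of gates, the log2 ratio in Ly6Chi monocytes was 0.01. In Ly6Clo monocytes 2 of 8 were lower (3.69%) and none higher (4.96%), with Slc7a11 at 0.66 times (0.472 to 0.919) and Srxn1 at 0.661 times (0.468 to 0.931). In moKC, the Ccr2 gate and the Spp1 gate no member passed 1.5-fold in either direction (4.23%, 3.21% and 7.52% of all genes higher, and 4.23%, 1.97% and 4.23% lower). Slc7a11 was at 0.713 times (0.571 to 0.89) in the Ccr2 gate, at 0.706 times (0.484 to 1.03) in the Spp1 gate and, on under 100 counts, at 1.09 times (0.695 to 1.71) in moKC. A count of Slc7a11 was found in similar shares of cells in the C1q gate (9.86% and 8.10%) and in Ly6Chi monocytes (5.62% and 5.43%), with intervals that overlapped.

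In neutrophils on CDA-HFD 3 of 9 members were lower in the Lyz2Cre/+.Egr2fl/fl mouse (4.47%) and none higher (7.76%). Slc7a11 was at 203 against 326 CPM, 0.622 times (0.573 to 0.674), Srxn1 at 38.0 against 74.1 CPM, 0.513 times (0.426 to 0.615), and Txnrd1 at 124 against 217 CPM, 0.573 times (0.517 to 0.634). The neutrophil gate also differed in Ly6c2, at 491 against 253 CPM, in Spp1, at 29.9 against 102 CPM, and in Il1rn, at 632 against 945 CPM, and their part in these ratios was not tested. Of the regulators, Maff, a small Maf gene, was lower by more than 1.5-fold in neutrophils, moKC, hLAM, Ly6Chi, Ccr2 and Ly6Clo, from 0.421 times in Ly6Clo to 0.634 times in hLAM, and at 0.68 and 0.70 times in the C1q and Spp1 gates. Nfe2l2 was at 0.666 times (0.632 to 0.703) in neutrophils and 0.774 to 0.897 times in the other gates. Of the other Nrf2 targets, 12 to 16 had enough counts in a gate, and at most 2 passed 1.5-fold in any gate. Those lower were Ptgr1 in moKC (0.548 times), Ephx1 in hLAM (0.371 times) and the Ccr2 gate (0.355 times), Abcc1 in the Spp1 gate (0.521 times), Hmox1 in Ly6Chi monocytes (0.646 times), and Hmox1 (0.563 times) and Abcc1 (0.651 times) in neutrophils. The gene that was higher was Akr1b8 in the Lyz2Cre/+.Egr2fl/fl mouse in the C1q gate, at 16.2 against 4.39 CPM, 3.69-fold (2.71 to 5.11), whereas in hLAM it was at 59.0 against 60.3 CPM. The summed CPM of the immediate early and heat shock genes was lower in the Lyz2Cre/+.Egr2fl/fl mouse in every gate on CDA-HFD, for example 3787 against 4603 CPM in hLAM. This holds for the sum and not for each gene, and its part in these ratios was not tested.

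On ND, 1 of 7 members differed between genotypes in KC by more than 1.5-fold, and that was Txnrd1 (3.67% of all genes higher and 2.25% lower). It was at 113 CPM in the Egr2fl/fl mouse and 179 CPM in the Lyz2Cre/+.Egr2fl/fl mouse, 1.58-fold (1.498 to 1.67), and the share of KC with a count was 59.1% and 69.4%. The other 6 members lay between 0.886 and 1.13 times. The summed CPM of the listed hepatocyte genes present in the matrix was 51.9 in KC of the Egr2fl/fl mouse and 135 in the other, and its part in the Txnrd1 value was not tested. In moKC on ND 1 of 3 members was higher (10.8%) and none lower (7.31%), again Txnrd1, at 1.95-fold (1.29 to 3.01) on 34 and 79 counts. The markers of that gate differed as well, with Clec4f at 1638 CPM in the Egr2fl/fl mouse and 2792 CPM in the other, Cd5l at 1293 and 1951 CPM and Gpnmb at 58.6 and 13.1 CPM, and their part in the Txnrd1 value was not tested. In Ly6Clo monocytes 0 of 3 (5.75% of all genes higher and 9.20% lower) and in neutrophils 0 of 4 members (9.35% and 7.34%) passed 1.5-fold, with Slc7a11 in neutrophils at 1.496-fold (1.05 to 2.16), just under it.

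The 9 genes were then read together over the 23 sums of gate and mouse with at least 50 cells, neutrophils left out. On the mean standardized log2(CPM + 1) of the members, hLAM had the highest values (1.51 and 1.54, with Egr2fl/fl first), followed by the Spp1 gate (0.76 and 1.05) and the C1q gate on CDA-HFD (0.56 in both), and the C1q gate and Ly6Chi monocytes on ND the lowest (-1.22 and -1.26). KC on ND lay in between, at -0.18 and -0.08. Against the mean of the other 8, Sqstm1 had a Pearson r of 0.94, Srxn1 0.90, Txnrd1 and Gclm 0.88, Prdx1 0.81, Nqo1 0.73, Slc7a11 0.72, Gclc 0.69 and Gsr 0.00. Gsr thus did not follow the other members across gates. These sums share a library and mice, so r describes their order and carries no test.

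Of 10671 genes with at least 500 counts, 0.375% had an r of at least 0.8 with this mean. Outside the lists, the nearest were Plin2 (0.91), Lilr4b (0.89), Gdf15 (0.87), Tuba1c, C5ar1, Rilpl2 and Cacul1 (0.86), and Por, Ftl1-ps1 and Lipa (0.84). Plin2 coats lipid droplets, Lipa encodes lysosomal acid lipase and Por encodes cytochrome P450 reductase. Ftl1-ps1 is annotated as a pseudogene of the ferritin light chain, and reads of the near-identical copies may have been split between them. Plin2 was at 757 and 752 CPM in hLAM, 600 and 469 CPM in moKC on CDA-HFD and 152 and 146 CPM in KC on ND. Among the listed genes, Fth1 had an r of 0.86, Ftl1 0.84 and Akr1b8 0.81, while Nfe2l2 was at 0.39 and Keap1 at -0.10. Of the immediate early and heat shock genes, Dusp1 was highest at 0.71, Atf3 and Fosb were at 0.66, and Ier2 was lowest at -0.34.

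Co-expression was read over cells of 1 gate and 1 mouse after each cell had been thinned to 7000 counts, and cells with fewer were left out. A pair was counted when both genes had a count in at least 5% of cells, and r was taken over log counts per 10000. In hLAM, 25 of 28 member pairs had an r of at least 0.1 in the Egr2fl/fl mouse (616 cells, 1.47% of all gene pairs) and 28 of 28 in the Lyz2Cre/+.Egr2fl/fl mouse (498 cells, 2.34%). The median r was 0.27 and 0.30. Srxn1 and Prdx1 were at 0.51 and 0.43, Gclm and Prdx1 at 0.49 and 0.55, and Txnrd1 and Prdx1 at 0.47 and 0.42. The weakest pairs involved Gclc, at 0.08 to 0.24 with the other members. Cells of a gate can differ in stage or purity, which moves many genes together, and r is given as a description.

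**Figure D4:**
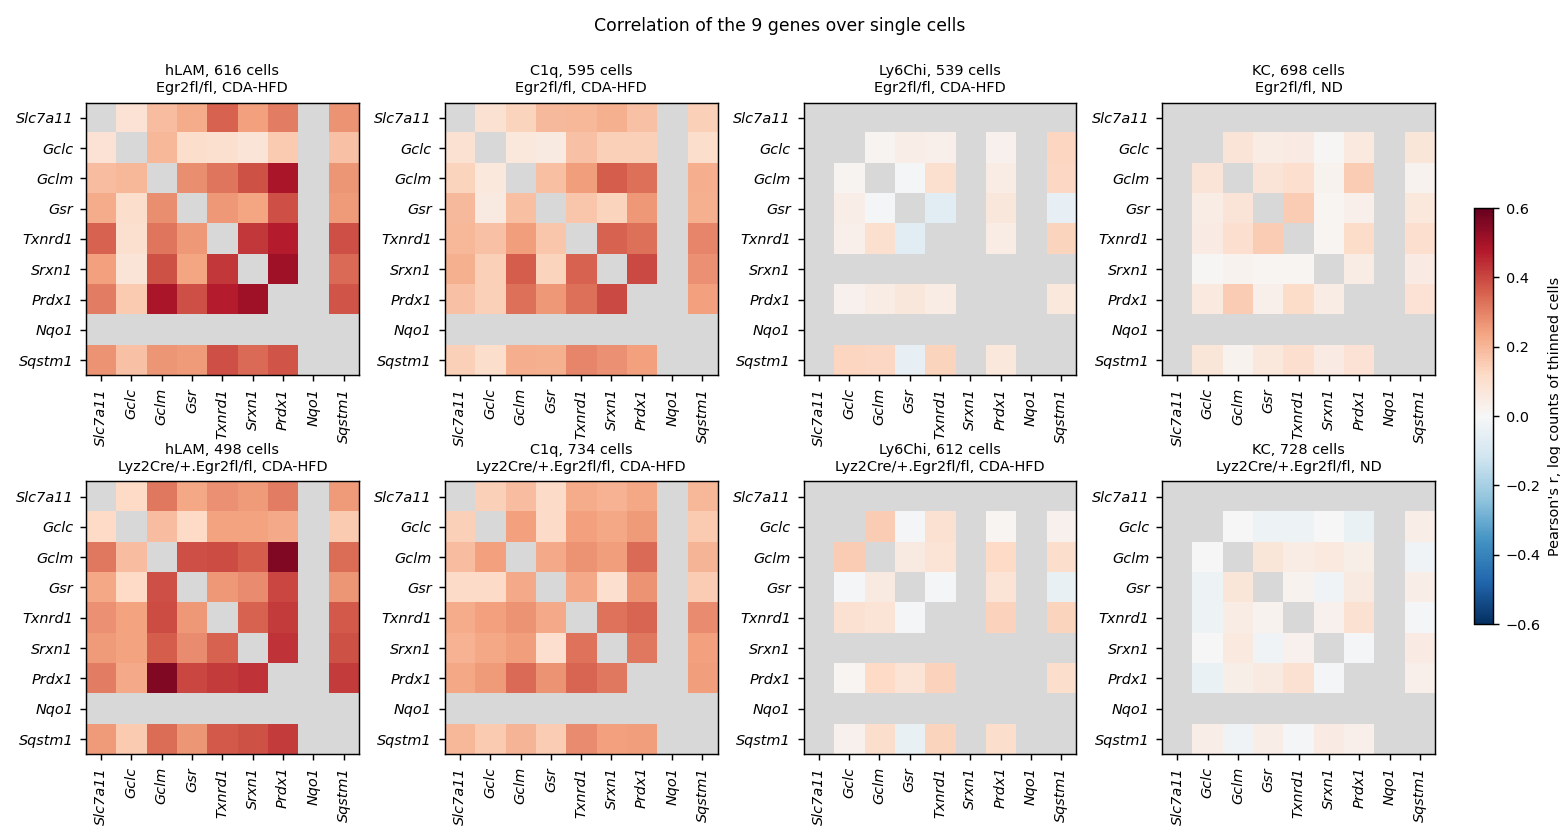
Pearson r of each pair of members over single cells, thinned to 7000 counts, by gate and mouse; grey marks a gene with a count in under 5% of the thinned cells. The 4 gates shown are hLAM, C1q and Ly6Chi on CDA-HFD and KC on ND; pairs are reddest in hLAM, follow in C1q and are pale in Ly6Chi and KC.

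The C1q, moKC and Spp1 gates on CDA-HFD also had most pairs at or above 0.1. In the C1q gate on CDA-HFD, 25 and 27 of 28 pairs reached 0.1 (1.53% and 0.885% of all pairs), with medians of 0.20 and 0.23, and in moKC 18 and 19 of 21 (9.42% and 6.51%), with medians of 0.16 and 0.23. For moKC this depended on the gate: with clusters in place of gates, 6 and 13 of 21 pairs reached 0.1 (2.06% and 1.16% of all pairs), with medians of 0.07 and 0.14. In the Spp1 gate, 23 and 27 of 28 did (14.2% and 13.5%, on 125 and 135 cells), with medians of 0.24 and 0.30, and in the Lyz2Cre/+.Egr2fl/fl mouse this median was as high as that of hLAM. Ly6Chi monocytes had 3 and 6 of 15 (1.74% and 1.31%), with medians of 0.04 and 0.08, and the Ccr2 gate 10 and 12 of 21 (0.765% and 0.463%), with medians of 0.10 and 0.11. Ly6Clo monocytes had 20 of 28 and 6 of 15 (6.33% and 4.14%), with medians of 0.19 and 0.04. These values depended on the gate and the depth: with clusters they were 3 of 10 and 4 of 15 (11.6% and 7.15%), with medians of 0.07 and 0.03, and without thinning 18 and 14 of 28 (4.54% and 3.28%), with medians of 0.16 and 0.12. KC on ND had 4 of 21 pairs in the Egr2fl/fl mouse (0.812%) and 0 of 21 in the other (0.714%), with medians of 0.06 and 0.03, although Prdx1, Sqstm1, Txnrd1 and Gclm were each found in at least 28.7% of the thinned KC.

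Among all 7457 and 7476 other genes in hLAM, Prdx1 had the highest r with Srxn1 and with Gclm in both mice, and the highest with Txnrd1 in the Egr2fl/fl mouse. Prdx1 itself was nearest to Ftl1 (0.60 and 0.63) and Fth1 (0.59 and 0.62). Slc7a11 was nearest to F10, a gene of the hLAM marker list (0.40), in the Egr2fl/fl mouse and to Procr (0.39) in the Lyz2Cre/+.Egr2fl/fl mouse. After thinning, Slc7a11 was found in 94 of 616 and 50 of 498 hLAM. Of these, 58.5% and 54.0% had a count of Srxn1, against 28.5% and 25% of hLAM without Slc7a11. For Txnrd1 the shares were 87.2% and 76.0% against 55.0% and 50.4%, and for Gclm 58.5% and 76.0% against 41.0% and 36.8%. In both mice the hLAM with Slc7a11 counts thus held the other 3 genes more often than those without.

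After thinning, Slc7a11 was found in 15.3% (12.5 to 18.3) and 10.04% (7.54 to 13) of thinned hLAM, Srxn1 in 33.1% and 27.9%, Txnrd1 in 59.9% and 53.0% and Gsr in 46.4% in both, with Egr2fl/fl first. In KC on ND, Slc7a11 was left in 0.573% and 0.275% of thinned cells and Srxn1 in 10.6% and 9.07%. At least 5 of the 9 genes were found together in 37.3% and 31.3% of thinned hLAM, 21.6% and 20.0% of the Spp1 gate, 14.3% and 13.9% of the C1q gate, 11.7% and 11.4% of moKC, 3.59% to 8.09% of the monocyte gates, all on CDA-HFD, and 9.03% and 10.03% of KC on ND. The most members in a thinned hLAM were 8 and 9.

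**Figure D5:**
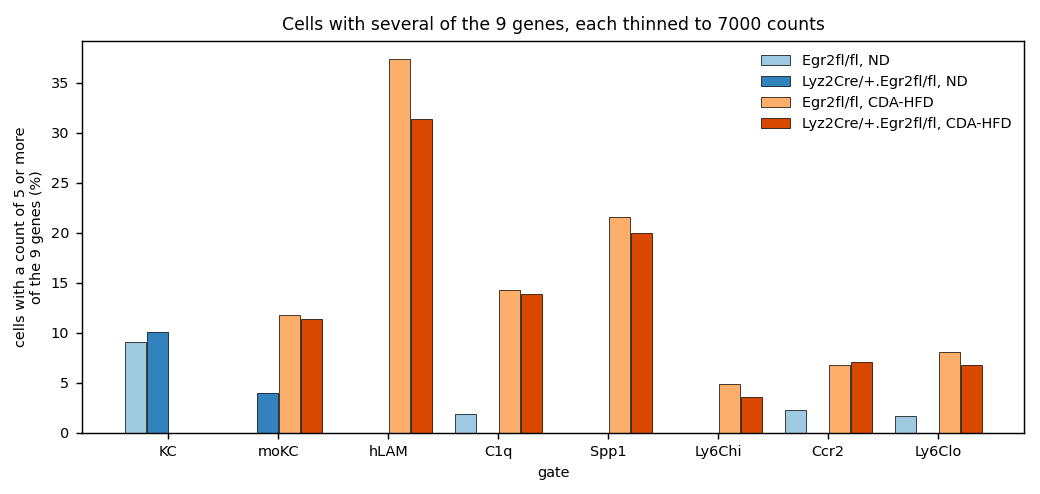
Percentage of thinned cells with counts of at least 5 of the 9 genes, by gate and mouse; a bar is missing where a mouse had under 50 thinned cells of the gate, and Ly6Chi monocytes on ND are at 0%. The bars are tallest for hLAM on CDA-HFD, at 37.3% and 31.3%, and on ND no bar other than those of KC exceeds 3.92%.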

How the data were processed

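The authors sequenced hashtagged liver cells of 4 mice on the BD Rhapsody system with TAS-Seq amplification, mapped the reads to the GRCm38 transcriptome and deposited raw counts per gene and barcode, without normalization. The sources used here do not say whether reads or molecules were counted. The submitters' processing notes name Seurat 4.1.1 and R 4.2.1. Barcodes the authors named doublets (1392 of 16786, 8.29%) and 7 hashtag columns of no mouse were not used, and no further doublet caller was run. Totals per cell ran from 3115 to 86395 counts.

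The 9 genes and all lists were chosen with earlier results of these data known. The genes named are the members, genes of those lists, and the 10 others nearest to the members' mean pattern. Genes of the per-cell neighbours and of the marker lists were named after their values were seen. Gate thresholds were set after marker levels, but not member levels by gate, had been seen. From cells with at most 25% mitochondrial counts, gates were formed in this order of precedence. KC had a Timd4 count and at least 4 KC markers. For moKC, C1qa, C1qb and C1qc reached 1000 CPM and the moKC list 500 CPM, and for hLAM the hLAM list reached 3000 CPM. The C1q gate had C1q genes at 2000 CPM, the Spp1 gate Spp1 at 200 CPM, and Ly6Clo monocytes Ace, Spn and Eno3 at 500 CPM with Ly6c2 under 1000 CPM. Ly6Chi monocytes had Ly6c2 at 1000 CPM with a Ccr2 count, and the Ccr2 gate Ccr2 at 200 CPM. Cells with 300 CPM of dendritic, lymphoid, proliferation or endothelial markers were left out.

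Counts were summed per gate and mouse and divided by total counts (CPM) in Python 3.11.15 with numpy 2.4.6, scipy 1.17.1 and pandas 2.3.3. CPM carry exact Poisson intervals, ratios the exact binomial interval of the split of the counts, and shares Clopper-Pearson intervals, all at 95%. Ratios were taken where both groups held 50 cells. Genes were counted as past 1.5-fold after 0.5 counts had been added to each sum. A 0 in the lower group was set to a floor of 3 counts per sum. The statistics were tested on simulated data. Alternatives were TMM scaling (edgeR 4.0.16), the mean over cells, at most 10% mitochondrial counts, at least 90% own hashtag, 1 more marker per gate, clusters made without the members (scanpy 1.11.5, leidenalg 0.10.2), no cells above the 95th percentile of totals, a minimum of 500 counts, cells not thinned and Spearman correlation. Cells low in immediate early and heat shock genes were an alternative chosen after seeing the data. Gene positions come from GENCODE and promoters from RefSeq.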

Additional observations from a re-analysis of the deposited data

Results flagged for a closer look

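In these results the ratio of Lyz2Cre/+.Egr2fl/fl to Egr2fl/fl went in opposite directions in 2 conditions, with 1 interval wholly above 1 and the other wholly below it. The differences themselves were not tested, and with 1 mouse per group a difference between mice cannot be told apart from 1 between genotypes. In neutrophils, Slc7a11 was at 0.622 times (0.573 to 0.674) on CDA-HFD and 1.496 times (1.05 to 2.16) on ND, a log2 difference of -1.27. Gsr in neutrophils was at 0.869 times (0.825 to 0.914) on CDA-HFD and 1.33 times (1.18 to 1.49) on ND, a difference of -0.61. Prdx1 in Ly6Clo monocytes was at 0.909 times (0.867 to 0.952) on CDA-HFD and 1.23 times (1.07 to 1.41) on ND, a difference of -0.43.

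On CDA-HFD, 4 members went up in hLAM, the C1q gate or the Spp1 gate and down in neutrophils of the Lyz2Cre/+.Egr2fl/fl mouse. Nqo1 was at 2.50 times (1.74 to 3.63) in hLAM and 0.694 times (0.509 to 0.941) in neutrophils, a log2 difference of 1.85. Srxn1 was at 1.43 times (1.10 to 1.87) in the Spp1 gate and 0.513 times in neutrophils, a difference of 1.48. Prdx1 was at 1.26 times (1.21 to 1.32) in the Spp1 gate and 0.699 times in neutrophils, a difference of 0.85. The Spp1 gate differed between the mice in Ly6c2, at 502 and 787 CPM, and Il1rn, at 344 and 223 CPM, with Egr2fl/fl first. Their part in these ratios was not tested. Gsr was at 1.22 times (1.11 to 1.33) in the C1q gate and 0.869 times in neutrophils, a difference of 0.48.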

How the results depend on the processing

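Counts were compared without regard to the number of ratios behind them. Of 136 recomputed counts, 116 stayed within 1.5 times the reported count, among them all under TMM scaling and at most 10% mitochondrial counts. The others were these. With at least 90% own hashtag, fewer gates kept 50 cells. The members higher on CDA-HFD were then 15 of 19 in place of 28 of 34 in Egr2fl/fl mice. In Lyz2Cre/+.Egr2fl/fl mice they were 3 of 5 in place of 9 of 13, with 0 lower in place of 1. Those lower in Lyz2Cre/+.Egr2fl/fl on CDA-HFD were 7 of 54 in place of 4 of 56. In KC of the Lyz2Cre/+.Egr2fl/fl mouse 2 pairs in place of 0 reached 0.1. With clusters, which exist for KC, moKC, hLAM, Ly6Chi, Ly6Clo and neutrophils, 11 of 17 ratios were higher on CDA-HFD in Egr2fl/fl mice. In Lyz2Cre/+.Egr2fl/fl on CDA-HFD, 4 were higher and 0 lower in place of 1 and 4. The diet count in Lyz2Cre/+.Egr2fl/fl mice was 8 of 17 with clusters in place of 9 of 13, within 1.5 times but a smaller share. With clusters the log2 ratio of Slc7a11 in Ly6Chi monocytes turned to 0.0148, and the cause was not tested. With a minimum of 500 counts, which fewer genes reach, 18 of 22 were higher on CDA-HFD in Egr2fl/fl mice, 0 in place of 1 lower in Lyz2Cre/+.Egr2fl/fl mice, 0 higher and 0 lower between genotypes on CDA-HFD, and 1 in place of 2 higher on ND. The mean over cells left 2 in place of 4 lower in Lyz2Cre/+.Egr2fl/fl on CDA-HFD, the stricter gate 1 in place of 2 higher on ND, and leaving out the deepest cells gave 2 in place of 1 higher on CDA-HFD. In cells low in immediate early and heat shock genes, 0 in place of 1 were lower on CDA-HFD in Lyz2Cre/+.Egr2fl/fl mice. Without thinning, 9 and 3 pairs in place of 4 and 0 reached 0.1 in KC, and by Spearman correlation 2 in place of 4 in the Egr2fl/fl mouse. Of the values of single members, 807 moved little and 145 moved more. With 1 mouse per group no sample could be left out. Counting error limits Nqo1 throughout and Slc7a11 and Srxn1 on ND.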

Other observations

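On CDA-HFD, 372 cells of the Egr2fl/fl mouse and 366 of the Lyz2Cre/+.Egr2fl/fl mouse met no gate. Slc7a11 was at 45.4 and 42.6 CPM, Srxn1 at 80.0 and 79.1 CPM, Txnrd1 at 329 and 277 CPM, Gclm at 123 and 174 CPM, Sqstm1 at 633 and 634 CPM and Gsr at 204 and 211 CPM. At least 5 of the 9 genes were found together in 21.8% and 24.3% of these cells after thinning. Their C1qa was at 19.9 and 31.4 CPM and their Ccr2 at 51.6 and 50.8 CPM, against at least 414 CPM of Ccr2 in the monocyte gates on CDA-HFD. Alb was at 174 CPM and the summed hepatocyte genes at 301 CPM in those of the Egr2fl/fl mouse, against 0 and 13.8 CPM in those of the Lyz2Cre/+.Egr2fl/fl mouse. Their summed neutrophil markers were at 671 and 543 CPM, against 171 to 272 CPM in the macrophage and monocyte gates on CDA-HFD.

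The 8 cells of the hLAM gate in the ND-fed Egr2fl/fl mouse had 36 counts of Slc7a11, 190 CPM, in 3 of the 8 cells, too few cells to be compared.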
